A study of Mus musculus with 19 samples.

Results

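The imprinted Dlk1-Dio3 miRNA cluster of mouse chromosome 12 was followed through 19 sperm small RNA libraries. Its members were all 65 miRNA hairpins that GENCODE annotates between 109.56 and 109.76 Mb of chromosome 12 (GRCm38), of 2198 miRNA hairpins used in all. The rule uses position alone. Reads of 20 to 24 nt on the sense strand were counted on each hairpin.

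Sperm came from the cauda epididymis of wild type C57BL/6J males that had been gavaged every day for 4 weeks from 8 weeks of age, with corn oil in control mice or with dicyclohexyl phthalate (DCHP), a plasticizer, in the exposed mice. Debris had been filtered off and somatic cells lysed. Libraries were made from the gel-cut small RNA by a traditional protocol or by PANDORA-seq, in which the RNA was first treated with T4 polynucleotide kinase, which gives fragments the ends that adapters need, and with AlkB, a demethylase that takes off methyl marks at which reverse transcriptase would halt. There were 4 control and 5 DCHP PANDORA-seq libraries, and 5 control and 5 DCHP traditional libraries. The comparisons ask whether paternal exposure or the library method changes which small RNAs of sperm are seen.

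The cluster belongs to a domain in which Dlk1, Rtl1 and Dio3 are made from the paternally inherited chromosome, while the long noncoding RNAs Meg3, Rian and Mirg and the miRNAs and snoRNAs they carry are made from the maternally inherited one. In male germ cells the control region of the domain becomes methylated, which sets the paternal imprint. The miRNAs are best known from brain, placenta and embryo, and Mir127 and its neighbours lie antisense to Rtl1 and can direct the cleavage of its transcript. A miRNA recognises targets mainly through its seed, bases 2 to 8.

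The mature sequences below are those of the arms on which the results turn, read from RefSeq (GRCm38.p6) with the seed in capitals, 5′ to 3′. RefSeq held a mature sequence for 111 arms of the members, with no match for Gm23912, Gm25750, Gm25252, Gm44322, Gm27379 and Gm24321 and with a single arm for Mir376c, Mir432, Mir453, Mir485, Mir487b, Mir539 and Mir882.
miR-127-3p: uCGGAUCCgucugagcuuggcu
miR-379-5p: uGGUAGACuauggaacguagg
miR-411-5p: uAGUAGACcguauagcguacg
miR-541-5p: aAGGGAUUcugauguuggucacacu
miR-434-5p: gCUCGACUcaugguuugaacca
miR-434-3p: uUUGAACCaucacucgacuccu
They lie on the plus strand, at chr12:109592888-109592909 for miR-127-3p, chr12:109709065-109709085 for miR-379-5p and chr12:109710190-109710210 for miR-411-5p. miR-379-5p and miR-411-5p are identical at 14 of 21 bases and at 6 of the 7 seed bases. Their partner arms carry 1 seed, AUGUAAC, and differ beyond it.
miR-379-3p: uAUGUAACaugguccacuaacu
miR-411-3p: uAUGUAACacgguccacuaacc
The most read arms of Mir300 and Mir381, miR-300-3p and miR-381-3p, are near copies of each other, so that the split of reads between them is less certain, although 26 reads in all were shared between a member and another hairpin.
miR-300-3p: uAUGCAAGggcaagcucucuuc
miR-381-3p: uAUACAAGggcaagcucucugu

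The libraries held 21588335 to 56506344 reads. The total of miRNA reads, on which levels are scaled, was taken as the 20 to 24 nt reads on the 453 hairpins of which at least 50% of all reads were of that length. It came to 5816 to 46900.5 reads in PANDORA-seq and to 959446 to 8146852 in traditional libraries, so that the members had 16 to 195 reads in a PANDORA-seq library and 2320 to 15632 in a traditional library. A level near a few reads in PANDORA-seq therefore carries a large counting error. The 5 hairpins fixed as male germ cell markers (Mir34b, Mir34c and Mir449a to c) summed to 767 to 6542 RPM (reads per 1000000 miRNA reads) over the 19 libraries. Markers of other tissues were also read: Mir122, the defining miRNA of liver, ranged from 12962 to 431833, the 5 markers of epididymal epithelium from 6024 to 47539, and 6 of 7 markers of smooth muscle and fibroblasts (Mir145b had no read) from 10660.2 to 89807. The blood list (6 of 7 annotated, 476 to 3143), the striated muscle list (5 of 5, 516 to 4905) and the neuron list (6 of 6, 0 to 517) were lower. In such bulk samples, fewer cells of a type and less RNA per cell cannot be told apart. Traditional control replicate 2 stood apart, with the highest miRNA total, the highest Mir122 level and 27.5% of all member reads.

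Of the 65 members, 47 had at least 1 read in the 19 libraries and 22 had 100 reads or more, of 56813 member reads in all. Mir127, antisense to Rtl1, held 37.8% of them, and Mir379, the most read hairpin of the stretch between Rian and Mirg, held 36.1%. By location, the 26 hairpins between Rian and Mirg took 43.7% of the member reads, the 6 antisense to Rtl1 41.3%, the 14 within Mirg 13.3%, the 7 between Meg3 and Rtl1 1.14%, the 4 within Rian 0.579% and Mir770, the hairpin within Meg3, 0.0387%. The 7 hairpins on the minus strand had no read. These shares pool libraries of unequal depth. By group, the stretch antisense to Rtl1 led in PANDORA-seq control (70.6% against 11.9% between Rian and Mirg), PANDORA-seq DCHP (55.2% against 32.0%) and traditional control (42.8% against 40.7%), and the stretch between Rian and Mirg led in traditional DCHP libraries (47.4% against 39.2%). Traditional control replicate 2 held 15632 member reads, against 2320 to 5786 in the other libraries of its group. Without it, the stretch between Rian and Mirg led in traditional control as well. The stretches follow the gene bounds of GENCODE. Mirg, counted apart from the stretch before it, held 17.5% in PANDORA-seq control and 11.2% in PANDORA-seq DCHP libraries. It held 14.3% in traditional control and 12.1% in traditional DCHP libraries. The lead in traditional control therefore also depends on that bound. Mir127 and Mir379 each dominated 1 of the 2 most read stretches. The hairpins of Rian and of the part of Meg3 inside the window were little read.

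The 18 members with no read were Mir299b, Mir432, Mir453, Mir487b, Mir539, Mir544, Mir758, Mir882, Mir3070a, Mir3070b, Mir3071, Mir3072, Mir3544, Gm23912, Gm24321, Gm25252, Gm25750 and Gm44322. With 0 reads over the libraries of a group, a level of up to 0.193 RPM is allowed in traditional control and of up to 0.278 in traditional DCHP, against 48.9 and 29.98 in PANDORA-seq control and DCHP. Such limits and the intervals given here cover counting error only. Another 25 members had 1 to 99 reads, among them Mir493 with 87 reads, Mir380 with 96, Mir369 with 66 and Mir410 with 59. In the PANDORA-seq libraries 16 members had a read in control and 20 in DCHP, against 43 and 44 in the traditional libraries.

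**Figure D1:**
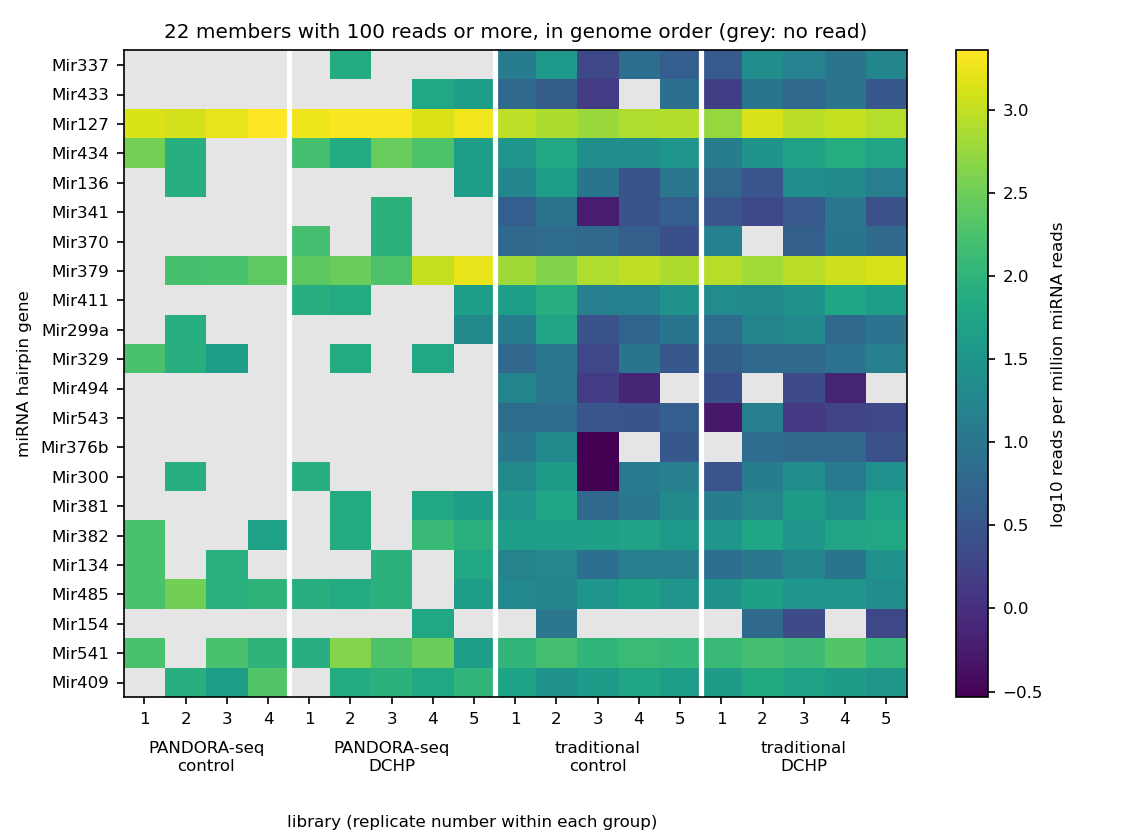
Colour gives the level of the 22 members with 100 reads or more in each of the 19 libraries, in log10 RPM, with grey for no read and the members in genome order from top to bottom. Mir127 and Mir379 are bright across the traditional libraries, and most other members are grey in most PANDORA-seq libraries, where 3 reads stand for 64.0 to 516 RPM.

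The summed level of all members was 2751, 2255, 2355 and 3061 RPM in PANDORA-seq control libraries and 2721, 3398, 3284, 3398 and 4158 in PANDORA-seq DCHP libraries. It was 2046, 1919, 1691, 2151 and 2000.0 in traditional control libraries and 1783, 2529, 2355, 2820.1 and 2695 in traditional DCHP libraries. The cluster thus held a few thousandths of the miRNA reads in each library. DCHP means were higher within both methods, 1.30-fold in PANDORA-seq and 1.24-fold in traditional libraries, and within both the groups overlapped. These ratios describe the chosen members and were not tested. Medians of the marker lists differed between the exposures as well, in both directions, but the groups overlapped for each list within both methods. The median of the epididymal epithelium list was 10622 RPM in control and 18673 in DCHP PANDORA-seq libraries, and 15151 and 22291 in traditional libraries. That of the germ cell list was 2402 and 4758, and 2807 and 4182. The median of the blood list was lower with DCHP, at 2254 and 1240 in PANDORA-seq and 791 and 591 in traditional libraries. PANDORA-seq DCHP replicate 3, at 3143, was nevertheless the highest PANDORA-seq library. Mir122 had medians of 47629 and 50232, and of 44759 and 40473. The smooth muscle and fibroblast list had medians of 15728 and 30872, and of 49969 and 59667, the striated muscle list 742 and 940, and 1922 and 3331, and the neuron list 67.5 and 217, and 332 and 370. Their part in the summed level was not tested. Without Mir122 in the miRNA total, the traditional control level of replicate 2 became 3377, the highest of the 10 traditional libraries, and the ratio of DCHP to control was 1.11.

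Mir127 was read in all 19 libraries. Its levels were 1376, 1253, 1713 and 2271 RPM in PANDORA-seq control, 1840.3, 2097, 2064, 1421 and 1898 in PANDORA-seq DCHP, 923, 749.7, 586, 782 and 814 in traditional control, and 556, 1337, 912, 1051 and 843 in traditional DCHP libraries. On this scale every PANDORA-seq control library lay above every traditional control library, and the same held for DCHP. Control and DCHP overlapped within each method.

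Mir379 had 0, 167, 171 and 247 RPM in PANDORA-seq control, 240.0, 289, 188, 1050.4 and 1684 in PANDORA-seq DCHP, 638, 412, 776, 956 and 750.0 in traditional control, and 874, 648, 906, 1154 and 1299 in traditional DCHP libraries. The PANDORA-seq values rest on 0 to 5 reads in control libraries and on 3, 4, 2, 17 and 79 reads in DCHP libraries. DCHP replicates 4 and 5 stood above the other PANDORA-seq libraries, and the same replicate numbers were the highest of the traditional libraries. The markers of epididymal epithelium were highest in those libraries as well, at 39481 and 38848 RPM in PANDORA-seq, against 9800.5 to 18673 in the other 7, and at 43977 and 47539 in traditional libraries, against 6024 to 22291 in the other 8. The smooth muscle and fibroblast markers were also highest in PANDORA-seq DCHP replicates 4 and 5, at 46834 and 89807 against 10660.2 to 30872 in the other 7. In traditional DCHP replicates 4 and 5 they were at 51886 and 64971, within the range of the other 8 libraries (28937 to 79586). The part of these cell types in the Mir379 level was not tested.

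**Figure D2:**
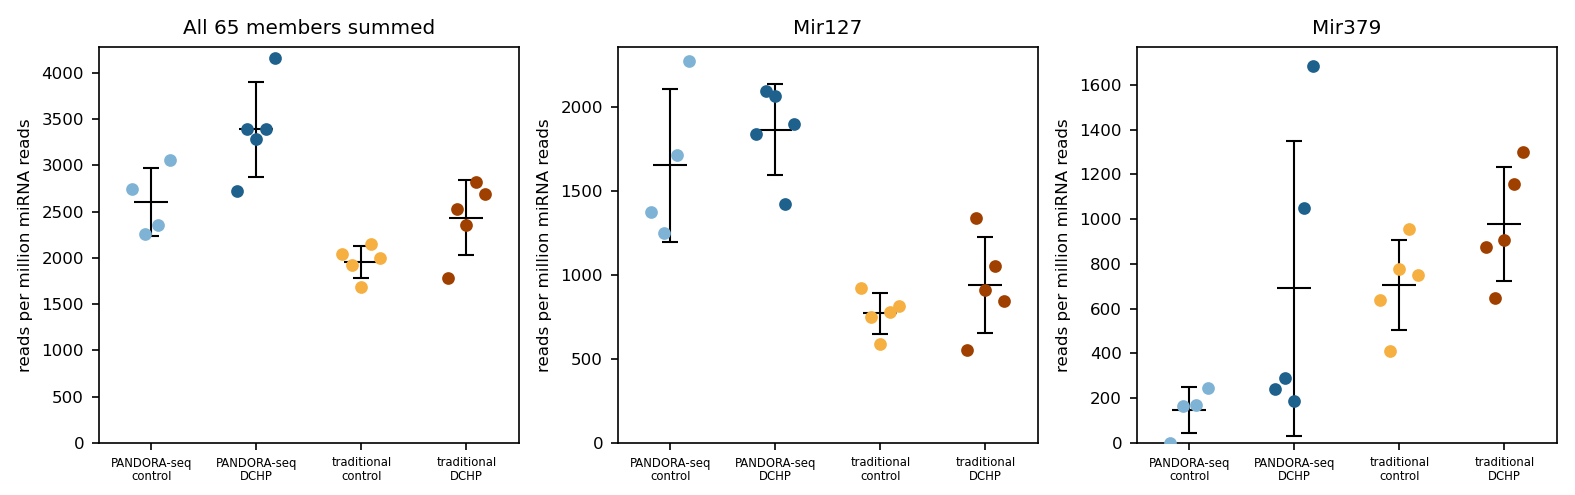
Points are libraries, horizontal bars group means and whiskers 1 SD, in RPM, for all members summed, Mir127 and Mir379. Mir127 lies at 1253 to 2271 in PANDORA-seq and at 556 to 1337 in traditional libraries, whereas Mir379 lies at 0 to 247 in PANDORA-seq control and at 412 to 956 in traditional control libraries.

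The other members were much less read. In traditional control libraries the means were 125 ± 23.8 (SD, n = 5) RPM for Mir541, 44.4 ± 10.6 for Mir409 and 44.0 ± 5.64 for Mir382, all within Mirg. Mir411 (36.2 ± 26.9) and Mir381 (25.0 ± 20.4), between Rian and Mirg, and Mir434 (35.6 ± 15.96), antisense to Rtl1, were near those of Mir485 (29.6 ± 12.1). These neighbours in the order did not differ beyond their spread, except that Mir541 had 107 to 164 and no other of them reached more than 79.2. Mir134, which acts on dendritic spines in neurons, had 14.2 ± 4.13, Mir300 had 17.3 ± 14.6 and Mir329 had 6.18 ± 3.64. The large SD of Mir411, Mir381 and Mir300 came with traditional control replicate 2, where 8 of the 22 members with 100 reads or more (Mir411, Mir381, Mir300, Mir136, Mir299a, Mir337, Mir154 and Mir376b) had their highest traditional level. That library held 72.9% of all Mir299a reads and 82.0% of all Mir154 reads.

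No member was called for DCHP exposure. In the traditional libraries 21 members passed the filter on low counts (10 or more reads in at least 4 libraries), and 0 of them were called by edgeR's quasi-likelihood test at an adjusted p below 0.1 and a fold above 2, as were 0.0% of all 418 hairpins tested. The 2 groups did not overlap for 0 members, against 1.2% of all hairpins with DCHP higher and 0.0% with DCHP lower. DESeq2 also called 0 members, and 0 of the 21 members but 29 of all hairpins had an unadjusted edgeR p below 0.05. The smallest p among the members belonged to Mir379 (log2 fold change of 0.47, SE 0.32, unadjusted p = 0.156, adjusted p = 0.809 by edgeR), followed by Mir127 (0.29, SE 0.30, adjusted p = 0.867) and Mir299a (-0.60, SE 0.67, adjusted p = 0.874). The Mir299a value turned to 0.65 without traditional control replicate 2.

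Of these 21 members, 15 had a positive and 6 a negative log2 fold change, with a median of 0.12 against 0.17 for all hairpins tested. With DESeq2 3 were positive and 18 negative, around a median of all hairpins of -0.16, and with TMM scaling the counts were 3 and 18, so that the direction of most members rested on the scaling. Relative to the median hairpin, Mir379 lay 0.30 to 0.48 higher and Mir127 0.043 to 0.119 higher on the log2 scale over the 6 scalings. In simulated traditional counts with 83 of 418 hairpins changed 4-fold, 97.6% of the changed hairpins were recovered. The simulation gave all hairpins 1 common dispersion, or spread between libraries (0.278). Recovery was counted over all changed hairpins and not over the members. Smaller changes were not simulated, and the SE of the less read members reached 0.94.

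**Figure D3:**
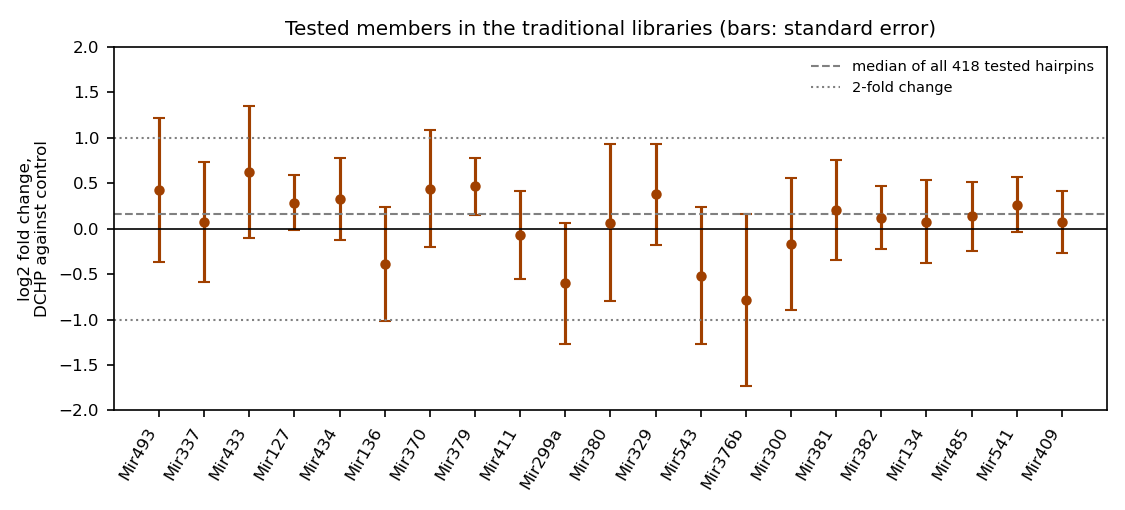
Points give the log2 fold change of DCHP against control for the 21 tested members in the traditional libraries, in genome order, with bars of 1 standard error, the median of all 418 tested hairpins (dashed) and the 2-fold lines (dotted). All 21 points lie within the 2-fold lines, and the values run from -0.78 for Mir376b to 0.62 for Mir433.

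In PANDORA-seq, only Mir127 had enough reads to be tested. Its log2 fold change was 0.15 (SE 0.53, adjusted p = 0.988 by edgeR), and 0.0% of the 180 hairpins tested were called. Its groups overlapped, whereas 0.556% of all hairpins had every DCHP library above every control library. Of these hairpins 9 had an unadjusted p below 0.05, and DESeq2 called 0 as well. The change with DCHP was also compared between the methods over all 19 libraries. No member of 21 was called for this interaction, nor were any of the 426 hairpins tested (0.0%), of which 11 had an unadjusted p below 0.05. DESeq2 called 0 of them. Only 1 of the 21 members, Mir127, reached 10 reads in 4 PANDORA-seq libraries, and the others passed the filter through the traditional libraries. Mir379 had the smallest p of the members (unadjusted p = 0.0454, adjusted p = 0.9998 by edgeR). Its rise was larger by 1.66 on the log2 scale in PANDORA-seq (SE 0.79). This rests on 11 PANDORA-seq control and 105 PANDORA-seq DCHP reads, of which 79 were in DCHP replicate 5. Mir485 had -1.74 (SE 0.92, unadjusted p = 0.0692 by edgeR), from 9 control and 5 DCHP PANDORA-seq reads. Mir411 had no read in PANDORA-seq control, and no fold is given for it (unadjusted p = 0.0732 by edgeR). The Mir379 difference was 0.96 without PANDORA-seq DCHP replicate 5 and 1.52 without replicate 4.

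The difference between the methods depended on the scaling for most members. In control sperm 13 members were tested and 3 were called per miRNA read. Mir127 was higher in PANDORA-seq (log2 fold change of 1.12, SE 0.41, adjusted p = 0.0311 by edgeR), and so was Mir485 (2.42, SE 0.69, adjusted p = 0.00731), but both were lower per total read, with TMM scaling and with DESeq2, and Mir127 also per 20 to 24 nt read on any hairpin. Mir379 was called lower (-2.06, SE 0.58, adjusted p = 0.00641), under those scalings as well, but it entered the fit only through the traditional libraries, where it is high, so that its call is favoured by the filter and is given as a description. The share called among all 343 hairpins tested was 49.9%, with 44.9% higher and 4.96% lower. Under other scalings 5 of the 13 members were called per read on any hairpin, 10 with DESeq2, 13 with TMM and 13 per total read, beside 77.3%, 89.8%, 96.5% and 75.8% of all hairpins, each of these members as lower. Whether the members differ from other hairpins in how often they were called was not tested. The groups did not overlap for Mir127 and Mir485, which were higher in PANDORA-seq, nor for Mir379, Mir411 and Mir381, which had fewer or no reads per miRNA read there. Of all hairpins, 41.4% were higher and 8.75% lower in this sense.

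None of the 13 members reached 10 reads in 4 PANDORA-seq control libraries. All passed the filter through the traditional libraries, so that a member could be tested without being seen in PANDORA-seq. Mir485 rests on 9 reads in the 4 PANDORA-seq libraries, with levels of 172, 334, 85.6 and 98.7 RPM against 18.8, 18.04, 32.7, 47.6 and 31.03 in traditional control libraries, and the groups did not overlap. Mir411 and Mir381 had no read in PANDORA-seq control. At 0 reads a level of up to 48.9 RPM is allowed there, above their traditional means of 36.2 and 25.0, so that no difference was detectable at this depth.

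The typical shift of all hairpins between the methods turned with the scaling. The median of all hairpins tested in control was 1.096 per miRNA read, -1.02 per read on any hairpin, -3.25 with TMM, -3.33 with DESeq2 and -6.14 per total read. Of the 171 calls per miRNA read, 154 were higher and 17 lower in PANDORA-seq, against 117 and 148 per read on any hairpin, 107 and 224 with TMM, 107 and 201 with DESeq2, and 9 and 251 per total read. Relative to the median hairpin, Mir127 lay between -0.19 and 0.038 over these scalings and the miRNA total without Mir122, Mir379 lay between -3.15 and -3.08, and Mir485 between 1.29 and 1.48. Mir127 thus lay close to the typical hairpin in control libraries under each of the 6 scalings. The Mir379 value rests on 11 PANDORA-seq control reads and on the filter described above, and nothing more is read from it.

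The ratio of the 2 hairpins is free of any scaling. Mir379 reads per Mir127 read were 0, 0.133, 0.1 and 0.109 in PANDORA-seq control libraries and 0.691, 0.550, 1.32, 1.22 and 0.922 in traditional control libraries, with no overlap. In DCHP libraries they were 0.130, 0.138, 0.0909, 0.739 and 0.888 in PANDORA-seq, where replicates 4 and 5 reached the traditional range of 0.485 to 1.57. The ratio was chosen with these values in view and was not tested.

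In DCHP sperm 15 members were tested between the methods, and 1 was called. Only 1 of the 15, Mir127, reached 10 reads in 4 PANDORA-seq libraries, and the others, Mir434 included, passed the filter through the traditional libraries. Mir434, antisense to Rtl1, was higher in PANDORA-seq per miRNA read (log2 fold change of 1.48, SE 0.68, adjusted p = 0.0975 by edgeR) and lower per total read, per read on any hairpin, with TMM and with DESeq2. It had 160.0, 72.3, 282, 185 and 42.6 RPM in PANDORA-seq, from 1 to 3 reads a library, and 12.5, 30.2, 50.4, 75.0 and 55.5 in traditional libraries, so that the groups overlapped. Mir127 passed the adjusted p but not the fold limit (0.99, SE 0.36, adjusted p = 0.0284), and Mir370 had 2.13 (SE 1.32, adjusted p = 0.238) from 3 PANDORA-seq reads, with 0.68 without PANDORA-seq DCHP replicate 1 and 0.68 to 2.93 over the 6 libraries whose omission left it tested. Of all 376 hairpins tested, 40.2% were called, 39.1% as higher and 1.06% as lower, beside 1 of 15 members. Mir127 was the member whose groups did not overlap, with PANDORA-seq higher, as for 36.4% of all hairpins, and 6.12% were lower. The 151 calls split into 147 higher and 4 lower per miRNA read, but into 126 and 161 per read on any hairpin, 126 and 213 with TMM, 121 and 241 with DESeq2, and 11 and 285 per total read.

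With the replicate number as a block, since same-numbered libraries of the methods deviated together, 2 members were called in DCHP sperm, Mir434 and Mir127 (log2 fold change of 1.03, adjusted p = 0.00409 by edgeR). Mir379 had -0.37 (SE 0.48, adjusted p = 0.583) in DCHP sperm without the block. Without PANDORA-seq DCHP replicate 1 or 3, or traditional DCHP replicate 1, no member was called in DCHP sperm. Without PANDORA-seq DCHP replicate 5 or traditional DCHP replicate 4, 2 members were. Shares over all hairpins are not given for the block or for omitted libraries, so nothing about the members is read from these counts. In control, Mir127 lost its call with Mir122 left out of the miRNA total (log2 fold change of 0.94, under the fold limit) and without PANDORA-seq control replicate 4 (log2 fold change of 0.92, adjusted p = 0.145 by edgeR) or traditional control replicate 3 (1.03, adjusted p = 0.106). The summed level per miRNA read was 1.33-fold higher in PANDORA-seq than in traditional control libraries and 1.39-fold higher in DCHP libraries, but 0.00735 and 0.0120 times as high per total read.

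A smaller share of the reads matched to members was of mature length in PANDORA-seq. Of member reads of 15 to 45 nt, 36.4% to 54.0% were 20 to 24 nt long in PANDORA-seq control libraries and 42.5% to 71.7% in PANDORA-seq DCHP libraries, against 79.5% to 85.0% in traditional control and 78.6% to 84.4% in traditional DCHP libraries. The methods did not overlap in either exposure. Nor did they overlap for this share over all 453 hairpins of the miRNA total. Those hairpins were chosen for a high share of 20 to 24 nt reads, and 35 of them are members. They therefore cannot show whether the shift was particular to the members, which was not tested. Reads of 15 to 19 nt made up 46.9% and 36.1% of the PANDORA-seq member reads in control and DCHP, and 16.7% and 19.1% of the traditional ones. The most frequent length was 15 nt, the shortest deposited, in PANDORA-seq control and 20 nt in the other groups. The PANDORA-seq shares rest on 324 reads in control and 587 in DCHP. Reads were matched with at most 1 mismatch to miRNA hairpins alone, so short fragments of other RNA can match by chance. The part of such matches in the shift was not tested.

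Within a hairpin, reads mostly came from 1 arm. Of the 22 members with 100 reads or more, 14 had at least 90% of their reads on 1 arm, and 9 were read mostly from the 5p and 13 mostly from the 3p arm. The 5p arm held 2.42% of the Mir127 reads, so that nearly all were miR-127-3p, but 99.4% of the Mir379 and 99.6% of the Mir541 reads. Mir434 was read nearly evenly, 53.3% from the 5p arm (47.8% without traditional control replicate 2). Mir154 had 45 of its 100 reads on the 5p arm, but 82 of the 100 came from traditional control replicate 2, and without it 15 of 18 were 5p. Mir329 had 71.2% on the 5p arm. In the traditional libraries, the 5p share was compared between DCHP and control for the 8 hairpins with 20 or more reads in each library. No share was called (two-sided exact permutation test, smallest adjusted p = 1), and 0 of 8 had an unadjusted p below 0.05. Mir434 had 47.3% ± 10.4 (SD, n = 5) of its reads on the 5p arm in DCHP and 51.3% ± 15.0 in control libraries, and Mir411 had 89.3% ± 5.13 and 82.2% ± 10.1. One fully separated share among 8 would have had an adjusted p of 0.0635, so that no hairpin could have been called alone. Between the methods, no member had 20 reads in each control library, and in DCHP libraries Mir127 did, with 4.35%, 0%, 0%, 0% and 5.62% of its reads on the 5p arm in PANDORA-seq and 1.13% to 2.46% in traditional libraries. These values overlapped and were not tested.

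**Figure D4:**
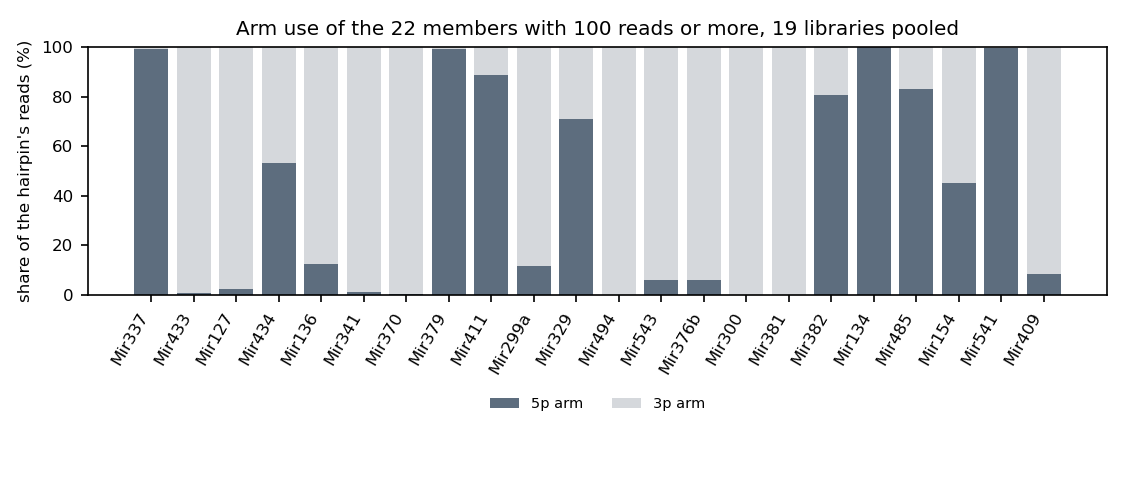
Bars give the share of each hairpin's 20 to 24 nt reads that lay on the 5p arm (dark) and the 3p arm (light), over the 19 libraries, for the 22 members with 100 reads or more in genome order. Most bars are nearly all dark or all light, and Mir434, Mir154 and Mir329 are mixed, Mir154 through traditional control replicate 2, without which 15 of its 18 reads are 5p.

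Reads of most arms differed from the RefSeq forms in length. Of 26 arms with a RefSeq mature sequence and 100 reads or more, the most read form was shorter than the RefSeq form for 23. The 5p arm of Mir485, with 83.1% of its 727 reads, has no RefSeq sequence and is left out. For miR-379-5p a 20 nt form, 1 base short at the 3′ end, made up 68.3% of reads and the full 21 nt form 17.95%, and 99.7% of reads began at the RefSeq first base. For miR-127-3p, 98.7% began there, and forms of 21 and 22 nt made up 30.5% and 25.2%. The 25 nt RefSeq form of miR-541-5p is longer than the counted reads. For miR-411-5p and miR-409-3p, 57.0% and 58.0% began at the RefSeq base. For 5 of the 26 arms most reads began elsewhere: the share at the RefSeq base was 29.98% for miR-136-3p, 21.9% for miR-127-5p, 43.7% for miR-341-3p, 6.50% for miR-485-3p and 0% for miR-382-3p. A shifted first base shifts the seed.

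Reads of miR-127-3p often ended in a base that the hairpin does not hold there, as terminal transferases add. A last base that did not match was seen in 19.4% to 20.6% of its reads in the traditional control libraries and in 17.99% to 24.5% in the traditional DCHP libraries, most often T (13.6% and 12.2% over the group), read for U. In PANDORA-seq it was 22.6% of 106 reads in control and 27.8% of 180 in DCHP. For miR-379-5p it was 2.74% and 1.81% in the traditional groups, so that the 2 most read arms differed in this respect.

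Changes inside the arms were most often A-to-G when 2 sites were included. ADAR enzymes deaminate adenosine to inosine in double-stranded RNA such as miRNA precursors, and inosine is read as G. Only arms with a RefSeq mature sequence were searched. Among member reads with 1 mismatch inside such an arm, A-to-G made up 1783 reads, or 1.04% of the A bases covered. T-to-C followed with 1282 reads (0.579% of T bases). Of the A-to-G reads, 705 lay at position 5 of miR-379-5p and miR-411-5p, and the other 1078 were fewer than the T-to-C reads. Named by RefSeq base, position from the 5′ end of the mature arm and base read, the highest share with 500 or more reads over the position was A5G of miR-411-5p, and A5G of miR-379-5p had the most changed reads of any A-to-G site. Both are described editing sites, and both fall in the seed. The base lies at position 109709069 of chromosome 12 in Mir379 and at 109710194 in Mir411. The base that changes is in capitals, first as in RefSeq and then as read.
miR-379-5p: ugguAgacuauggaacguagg
miR-379-5p A5G: ugguGgacuauggaacguagg
miR-411-5p: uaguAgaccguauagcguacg
miR-411-5p A5G: uaguGgaccguauagcguacg
The changed seed of miR-379-5p, GGUGGAC, is that of miR-7672-5p in the RefSeq table, and the changed seed of miR-411-5p, AGUGGAC, is that of no mouse miRNA listed there.

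Over all libraries, 542 of 18144 miR-379-5p reads (2.99%, exact binomial interval 2.74% to 3.25%) and 163 of 936 miR-411-5p reads (17.4%, 15.0% to 19.999%) had G, counted among reads that matched the arm or differed from it by that change alone. Traditional control replicate 2 held 458 of the miR-411-5p reads, and without it the share was 30.8% (147 of 478 reads, 26.6% to 35.1%), against 3.23% for miR-379-5p. Both changes were seen in each of the 10 traditional libraries. The other A-to-G changes of miR-379-5p had 0.452% to 0.610%, those of miR-411-5p 0.258% to 2.40%, and the median of the A-to-G changes other than these 2 sites was 0.645% over positions with 500 or more reads. The highest of the others was A12G of miR-381-3p with 3.21%, and among changes of any kind miR-379-5p A5G was the fifth, also after G17A of miR-411-5p (3.496%) and C22T of miR-541-5p (3.18%).

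The miR-379-5p share was 2.86%, 1.69%, 3.03%, 3.56% and 4.28% in traditional control and 3.76%, 4.12%, 3.92%, 2.71% and 2.81% in traditional DCHP libraries, and the groups overlapped. The miR-411-5p share was 22%, 3.49%, 53.1%, 43.8% and 15.4% in traditional control and 55.2%, 7.69%, 8.62%, 39.4% and 27.7% in traditional DCHP libraries. It thus varied more between libraries of a group than between the groups. The highest shares rest on 16 of 29 and 17 of 32 reads, and their exact binomial intervals (35.7% to 73.6% and 34.7% to 70.9%) include an equal share of both forms. The 4 traditional libraries with the highest Mir122 level (127683 to 431833 RPM) had miR-411-5p shares of 3.49% to 22%. The other 6 (13794 to 44759) had 15.4% to 55.2%. These sets were formed after the shares were seen, and their shares overlap. The 7.69% of traditional DCHP replicate 2 comes from a library with 20 Mir411 reads in all. The part of other cell types in these shares was not tested. In PANDORA-seq DCHP libraries 1 of 99 miR-379-5p reads and 1 of 3 miR-411-5p reads had the change, and the 11 miR-379-5p reads of PANDORA-seq control are too few to tell.

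No site was called between DCHP and control. Among the 7 A-to-G sites with a share of at least 1% over all libraries and 20 or more reads in every traditional library, 0 passed (two-sided exact permutation test, smallest adjusted p = 0.643) and 0 had an unadjusted p below 0.05. miR-379-5p A5G had 3.46% ± 0.657 (SD, n = 5) in DCHP and 3.09% ± 0.955 in control (exact permutation p = 0.524). miR-411-5p A5G did not reach 20 reads in each library, and at 10 or more reads, a limit chosen after seeing the data, it had 27.7% ± 20.3 and 27.6% ± 20.5 (exact permutation p = 0.992). The smallest p that this exact permutation test can give at 5 against 5 libraries is 0.00794, which for a single site among 7 becomes 0.0556 after adjustment, so that no site could have been called alone. Of the other sites with a share of at least 5%, miR-494-3p A11G (15 of 102 reads) had 93.3% of its changed reads in traditional control replicate 2, and miR-379-3p A9G (6 of 105) had 83.3% there.

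**Figure D5:**
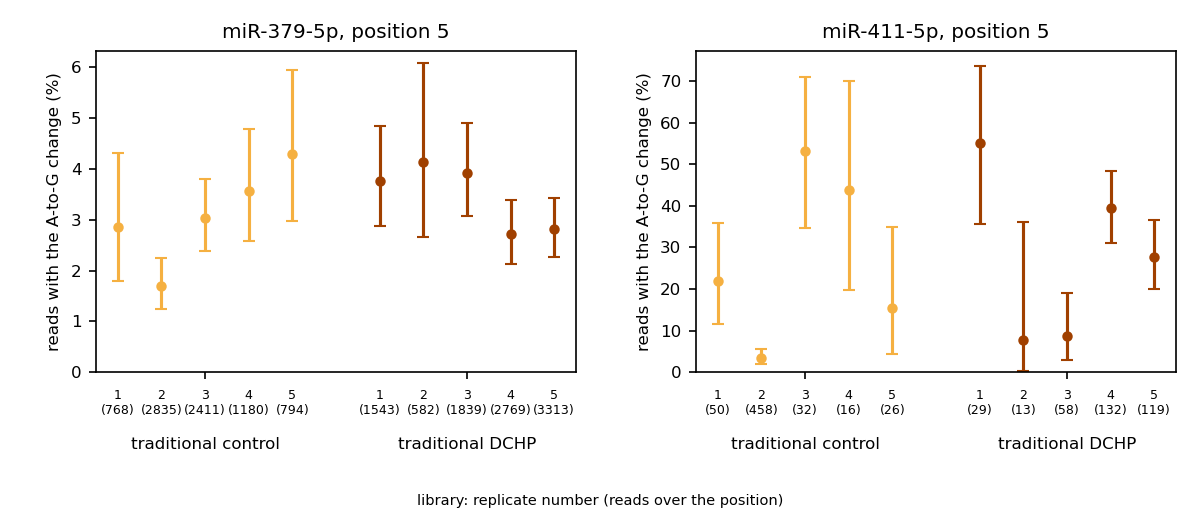
Points give the percent of reads with G in place of A at position 5 of miR-379-5p (left) and miR-411-5p (right) in each traditional library, with exact 95% binomial intervals and the reads over the position in brackets; the 2 vertical axes differ in range. The miR-379-5p shares lie between 1.69% and 4.28%, and the miR-411-5p shares between 3.49% and 55.2%, with control and DCHP overlapping in both.

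The domain also carries snoRNAs, of which 23 are annotated in the same window, and each had at least 1 read. They summed to 1.47 to 4.39 reads per 1000000 total reads (median 2.92) in traditional control, 2.71 to 6.35 (median 4.24) in traditional DCHP, 0.473 to 1.26 in PANDORA-seq control and 0.644 to 1.18 in PANDORA-seq DCHP libraries. Like the miRNAs, they were lower per total read in PANDORA-seq than in any traditional library, and exposures overlapped within each method. Many of these snoRNAs are near copies of each other, and single members are not given.

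Among hairpins outside the window, Mir574 (0.76), Mir320 (0.72), Mirlet7i (0.71), Mir222 (0.70) and Mir130b (0.67) had the highest Spearman correlation of their level with the summed cluster level over the 10 traditional libraries, of 268 hairpins ranked. All points share their library, and the correlations are given as a description.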

How the data were processed

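Members and gene lists were chosen with earlier results of these data known. The authors deposited counts: for each library, every distinct cleaned read of 15 to 45 nt with its number of occurrences, unnormalized and without molecular identifiers. Adapter and quality settings are not given in the sources used here; the submitters' processing notes name the build mm10, the same assembly as GRCm38. Control status was taken from the library names, because the treatment field names DCHP for all 19 libraries.

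Reads were matched to the sense strand of 2198 GENCODE M21 miRNA hairpins (4 holding a tRNA locus were left out) with at most 1 mismatch, keeping the best match and dividing shared reads equally; fractions were rounded before fits. Hairpins with 10 or more reads in at least 4 libraries of a fit entered edgeR 4.0.16 (quasi-likelihood F-test, R 4.3.3), with the miRNA total as library size, and called at a Benjamini-Hochberg adjusted p below 0.1 over all tested hairpins and a fold above 2. The SE of an edgeR log2 fold change was derived from the test, as its absolute value divided by the square root of F. For members with few reads it is approximate. DESeq2 1.42.0, other scalings, read classes and omitted libraries were alternatives. Arm and A-to-G shares were compared with two-sided exact permutation tests (scipy 1.17.1), called at an adjusted p below 0.05. Arms without a pair of RefSeq mature sequences were assigned by the middle of the hairpin.

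Named members were the 12 with the highest mean over the 4 group means and those called. The 3 tested members with the smallest p in each comparison were also named. Sites were those with an A-to-G share of at least 5%. miR-379-5p A5G, at 2.99%, is below that limit and is given as 1 of the 7 tested sites. Other members are given with counts, and the sites and the 2-hairpin ratio were described after their values were seen. The study put sperm RNA of control and exposed sires through both protocols and describes the PANDORA-seq libraries as biological replicates of mice. It does not say in so many words that each traditional library is 1 mouse, so p-values there measure the spread between these samples. Same-numbered libraries of the 2 methods deviated together from their group means. Their r was 0.296 to 0.748 in 4 control pairs and 0.446 to 0.578 in 5 DCHP pairs. The own number was the best match for 3 of the 4 control and 4 of the 5 DCHP PANDORA-seq libraries. PANDORA-seq control replicate 4 had 0.518 with its own number and 0.544 with traditional control replicate 5. PANDORA-seq DCHP replicate 5 had 0.566 with its own number and 0.567 with traditional DCHP replicate 4. What the numbers stand for is not stated. The main tests between the methods and of the interaction left this pairing out, and only the alternative with the replicate number as a block used it. Control and DCHP libraries of a number showed no such pattern (r of -0.306 to 0.352 in PANDORA-seq and -0.421 to 0.0795 in traditional libraries). No 2 libraries of a group were copies: over 36 pairs, chi-square divided by its degrees of freedom was at least 13.9. In simulated counts with 4-fold changes and 1 common dispersion per comparison, edgeR recovered 86.1% of changed hairpins of 180 for exposure in PANDORA-seq. Between the methods it recovered 50.0% of those of 343 in control and 68.0% of those of 376 in DCHP.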

Additional observations from a re-analysis of the deposited data

Results flagged for a closer look

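Of 36 groups of library values looked at (the summed level, the 12 most abundant members in the traditional groups, Mir127 and Mir379 in PANDORA-seq, and the 2 A5G shares), 1 held a library far from the others, and chance alone flags about 1 in 20 such groups. Mir434, antisense to Rtl1, had 63.6 RPM in traditional control replicate 2, against 25.3 to 31.9 in the other 4 libraries of the group, a gap of 0.827 of the group's range. Mir122 was at 431833 RPM in that library, and its part in the Mir434 level was not tested.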

How the results depend on the processing

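Under each alternative run, leaving out any library and the replicate block included, 0 members were called for DCHP in either method or for the interaction (not run for reads of 15-45 nt and reads of 1 hairpin). The counts of 0 sites and 0 arm shares say nothing on stability, since a single site or share could not pass after adjustment (smallest adjusted p 0.0556 and 0.0635, more with a library left out or in pairs). The block changed the count only for the methods in DCHP sperm (2 members). Members called between the methods in control were 3. They were 5 per read on any hairpin, with no filter and with reads of 15-45 nt, 10 with DESeq2, and 13 with TMM and per total read. They were 2 with the miRNA total without Mir122, and 2 to 3 without any library. In DCHP they were 1, and 4 per read on any hairpin, 14 with DESeq2, 11 with TMM, 15 per total read and 6 with reads of 15-45 nt. With exact matches or with all libraries in 1 fit they were 0, and without any library 0 to 2. Most of all hairpins tested in DCHP were also called with DESeq2, with TMM, per total read and per read on any hairpin. Shares over all hairpins are not given for each run, so nothing about the members is read from these counts. The summed fold for DCHP in PANDORA-seq was 1.86 per total read, 1.72 per read on any hairpin and 1.23 to 1.38 without any library, and 1.19 to 1.33 in traditional libraries. Between the methods it was 0.00735 per total read, 0.308 per read on any hairpin and 2.01 with reads of 15-45 nt in control (1.25 to 1.39 without any library), and 0.0120, 0.427 and 1.81 in DCHP (1.30 to 1.46). Log2 fold changes that turned, in the order TMM, total reads, DESeq2 and, where given, reads on any hairpin, were for Mir127 -3.26, -6.33, -3.47 and -0.98 in control and -1.34, -5.93, -2.39 and -0.81 in DCHP, for Mir485 in control -1.91, -4.80 and -2.04, and in DCHP for Mir434 -0.93, -5.66, -1.99 and -0.51 and for Mir370 -0.29, -4.62 and -1.18. For DCHP in traditional libraries Mir127 turned to -0.12 with TMM and -0.074 with DESeq2, and Mir299a, at -0.91 to 0.65 without any library, to 0.65. The reversals other than that of Mir299a come with the library sizes that each scaling sets. The miRNA total without Mir122 and the limit of 10 reads over a site were chosen after seeing the data. A search of the genome for reads with G was not run, since no genome sequence was used; no read of a tested site was found in another annotated transcript. Depth limits PANDORA-seq, where 3 reads stand for 64.0 to 516 RPM.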
